A study of Mus musculus with 6 samples.

Results

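Granule-forming neutrophils are the last dividing stage and the first non-dividing stages of the neutrophil lineage, and they were picked out here by their own transcripts. A barcode, the tag of 1 droplet, was kept with at least 300 genes, at least 500 transcripts counted as unique molecular identifiers (UMIs) and at most 10% mitochondrial UMIs. It was a member when Ngp, Camp and Ltf together made at least 1% of its UMIs and Elane, Prtn3 and Mpo together under 0.2%. Of 28870 kept barcodes of marrow and spleen, 1692 passed. There were 793 in the Cysltr1 KO marrow library, 251 in WT marrow, 115 in Cysltr1 KO spleen and 533 in WT spleen. The series holds 43810 kept barcodes in all, tumor included. Since these 6 genes chose the cells, their levels and the number of members are described with no test, and the counts of called genes by granule list leave them out.

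All animals bore a tumor grown from EMT6, a BALB/c breast carcinoma line. The tested animals are labelled deficient in Cysltr1, the gene of a receptor for cysteinyl leukotrienes, and the controls are BALB/c animals labelled WT. Their age is not given in the sources used here. Marrow cells were magnetically enriched for blood progenitors and spleen cells for CD45, so tissue and enrichment cannot be told apart. Each library pooled 3 mice, and there was 1 library for each tissue and genotype. The labels do not say whether the marrow and spleen pools shared animals. With 1 library for each tissue and genotype, p-values measure no spread between like libraries. In the fit with tissue and labelled genotype as terms, they rest on how unequal the tissue difference was between the labelled genotypes. The median UMI count of the members was 3735 in KO marrow, 7743 in WT marrow, 16234 in KO spleen and 11154 in WT spleen. The libraries of a pair shared 50 to 109 barcodes, at most 1.45% of the smaller library. Intervals are 95% exact intervals (Poisson for levels, Clopper-Pearson for shares) and cover counting error only. Levels are CPM, the count of a gene scaled to 1000000 UMIs, with UMIs summed over the members of a library.

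The libraries labelled KO held more Cysltr1 UMIs than those labelled WT, which goes against the label. Among the members, Cysltr1 (chromosome X, 106574346 to 106603679, in mm10) had 52.9 CPM (45.6 to 61.0, 191 UMIs) in KO marrow, against 2.16 CPM (0.702 to 5.04, 5 UMIs) in WT marrow. It had 28.9 CPM (22.0 to 37.4, 58 UMIs) in KO spleen, against 0.157 CPM (0.00398 to 0.876, 1 UMI) in WT spleen. The log2 fold change was 5.57 (SE 0.41, edgeR's quasi-likelihood test, adjusted p = 4.90e-12). The labels do not give the deleted stretch, and reads from elsewhere in the gene would not test the deletion. KO and WT below are therefore the names on the library labels, not a measured genotype.

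Neutrophils are made in steps that their granules record. Promyelocytes fill azurophil (primary) granules with Elane, Prtn3 and Mpo. Myelocytes and metamyelocytes then switch to specific (secondary) granules, whose contents include lactoferrin (Ltf), the cathelicidin Camp, the Ngp protein and lipocalin 2 (Lcn2), and this step needs the transcription factor C/EBP epsilon (Cebpe). Division ends in the course of that step. Gelatinase granules, secretory vesicles and the receptors of the mature cell follow. The receptor CXCR4 holds neutrophils in the marrow, while CXCR2 favours their release. In mice with tumors the spleen can make neutrophils as well.

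The cells carried the markers of this stage. Ngp (chromosome 9, 110419747 to 110423012) was at 51490 CPM in KO marrow, 54952 CPM in WT marrow, 58656 CPM in KO spleen and 60030 CPM in WT spleen. Camp was at 36953 and 39874 CPM in KO and WT marrow and at 35126 and 32408 CPM in KO and WT spleen. Ltf was at 9994 and 10830 CPM in KO and WT marrow and at 15028 and 16212 CPM in KO and WT spleen. These 3 genes define the members, so their level says only how far above the limit the cells stood.

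The remaining markers were not used to choose cells, though every gene of a chosen cell is tied to the choice. Lcn2, which binds bacterial siderophores, was found in 100% of members of every library, at 20139 CPM in KO marrow, 20839 CPM in WT marrow, 19907 CPM in KO spleen and 23999 CPM in WT spleen. In the other kept barcodes it was at 677 and 446 CPM in KO and WT marrow and at 180 and 1113 CPM in KO and WT spleen. Cd177, a surface protein of neutrophils, was found in 96.2% to 100% of members, at 1372 and 1502 CPM in KO and WT marrow and at 1938 and 2066 CPM in KO and WT spleen. Fcnb, a ficolin of early granule-forming cells, was at 174 CPM in KO marrow, 217 CPM in WT marrow, 252 CPM in KO spleen and 172 CPM in WT spleen. It was seen in 21.7% and 35.5% of members of KO and WT marrow and in 53.0% and 39.0% of those of KO and WT spleen. So of the markers outside the rule, Lcn2 and Cd177 were near universal, and Fcnb marked a subset.

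The promoters of Ngp, Camp, Ltf and Lcn2 are shown because these genes carry the stage and C/EBP epsilon is the factor it needs. Each is 250 bases before to 50 bases after the gene's start, from RefSeq, build GRCm38.p6. They lie at chr9:110419558-110419857 (plus strand), chr9:109849407-109849706 (minus strand), chr9:111019042-111019341 (plus strand) and chr2:32387690-32387989 (minus strand). Capitals mark every match to TTGCNNAA or its reverse complement TTNNGCAA, a C/EBP-type motif, searched on both strands.
Ngp: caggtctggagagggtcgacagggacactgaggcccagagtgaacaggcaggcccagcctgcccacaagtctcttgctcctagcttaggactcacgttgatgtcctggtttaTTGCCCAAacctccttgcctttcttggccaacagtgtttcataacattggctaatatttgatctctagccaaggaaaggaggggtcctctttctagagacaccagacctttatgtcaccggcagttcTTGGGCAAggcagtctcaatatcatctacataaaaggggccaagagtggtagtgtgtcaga
Camp: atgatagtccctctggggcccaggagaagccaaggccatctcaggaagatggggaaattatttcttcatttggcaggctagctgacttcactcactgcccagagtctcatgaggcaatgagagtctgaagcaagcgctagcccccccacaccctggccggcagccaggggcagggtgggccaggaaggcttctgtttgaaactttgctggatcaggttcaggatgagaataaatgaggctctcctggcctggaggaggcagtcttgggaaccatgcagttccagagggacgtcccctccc
Ltf: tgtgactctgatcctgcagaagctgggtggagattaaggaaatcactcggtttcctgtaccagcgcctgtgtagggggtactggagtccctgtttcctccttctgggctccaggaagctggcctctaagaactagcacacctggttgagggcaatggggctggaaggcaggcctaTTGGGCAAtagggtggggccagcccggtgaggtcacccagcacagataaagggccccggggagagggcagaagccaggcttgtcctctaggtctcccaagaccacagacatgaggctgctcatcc
Lcn2: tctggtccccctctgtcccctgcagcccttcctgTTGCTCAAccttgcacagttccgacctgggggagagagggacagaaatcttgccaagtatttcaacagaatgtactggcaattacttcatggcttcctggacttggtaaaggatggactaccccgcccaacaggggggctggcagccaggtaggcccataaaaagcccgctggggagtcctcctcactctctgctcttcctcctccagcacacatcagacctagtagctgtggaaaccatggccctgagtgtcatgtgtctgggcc
Ngp held 2 matches, starting 138 and 11 bases upstream of the RefSeq start, Ltf held 1 at 75 bases upstream and Lcn2 1 at 216 bases upstream, while Camp held none in this window. The gene span of Ngp given above is from GENCODE and begins inside its window, at 110419747. That of Lcn2 (32384633 to 32388252) covers its whole window, so these distances hold for the RefSeq starts only. Of 19 specific granule genes on the list used here, 16 had a promoter in the table and 5 of these (31.2%) held a match, against 10.8% of all 32851 promoters. A match is a description of letters and shows no binding.

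Members made up 12.4% (11.6 to 13.2) of kept barcodes in KO marrow against 1.39% (1.15 to 1.67) in KO spleen. In WT marrow they made up 4.77% (4.21 to 5.39), against 5.95% (5.47 to 6.46) in WT spleen. The KO pair thus had the higher share in marrow and the WT pair the slightly higher share in spleen, with 1 library on each side and no test. The share of all kept barcodes depends on what else each enrichment let through. Fewer members and more of the other cells cannot be told apart from it.

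The transcript share of Ngp, Camp and Ltf, called the granule share here, placed most members well above the limit. Its median was 7.91% in KO marrow, 10.2% in WT marrow, 10.8% in KO spleen and 10.9% in WT spleen. Shares of 1% to 2% were held by 16.1% of members in KO marrow and 9.16% in WT marrow, against 1.74% in KO spleen and 6.19% in WT spleen. Just inside the limit, at 1% to 1.25%, stood 44 and 6 members of KO and WT marrow and 1 and 12 of KO and WT spleen. Just outside, at 0.75% to 1%, stood 49 and 10 barcodes of KO and WT marrow and 0 and 13 of KO and WT spleen. Cells thus stood close to the limit on both sides in KO and WT marrow and in WT spleen. Their number was largest in KO marrow, which also had the most members. On the azurophil limit, 30 and 16 members of KO and WT marrow and 1 and 2 of KO and WT spleen lay at 0.15% to 0.2%, while 19 and 4 barcodes of KO and WT marrow and 0 and 3 of KO and WT spleen lay at 0.2% to 0.25%.

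The neighbours of the members were counted on either side of the limits. Cells with the same granule share but Elane, Prtn3 and Mpo at 0.2% or more numbered 353 in KO marrow, 233 in WT marrow, 4 in KO spleen and 49 in WT spleen. In those cells of marrow, Lcn2 was at 4661 CPM (KO) and 5117 CPM (WT) and Ly6g, a surface marker of the neutrophil lineage, at 309 CPM (KO) and 213 CPM (WT), while the members of marrow had Ly6g at 3532 CPM (KO) and 2632 CPM (WT). Cells with S100a8 and S100a9 at 1% or more of UMIs and a granule share under 1% numbered 618 in KO marrow, 157 in WT marrow, 1186 in KO spleen and 2589 in WT spleen. In spleen those later cells had Cxcr2 at 1209 CPM (KO) and 1140 CPM (WT), against 162 CPM (KO) and 232 CPM (WT) in the members. In marrow they had it at 675 CPM (KO) and 453 CPM (WT), against 257 CPM (KO) and 203 CPM (WT). Their Elane in marrow was higher too, at 175 CPM (KO) and 245 CPM (WT) against 127 CPM (KO) and 179 CPM (WT). Mki67 was higher in them in WT marrow, at 290 against 236 CPM, and lower in KO marrow, at 131 against 190 CPM. Later thus names the cut, and in marrow the stage of these cells is not settled. All 3 kinds of cell were cut by their own transcripts, so these levels are a description.

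**Figure D1:**
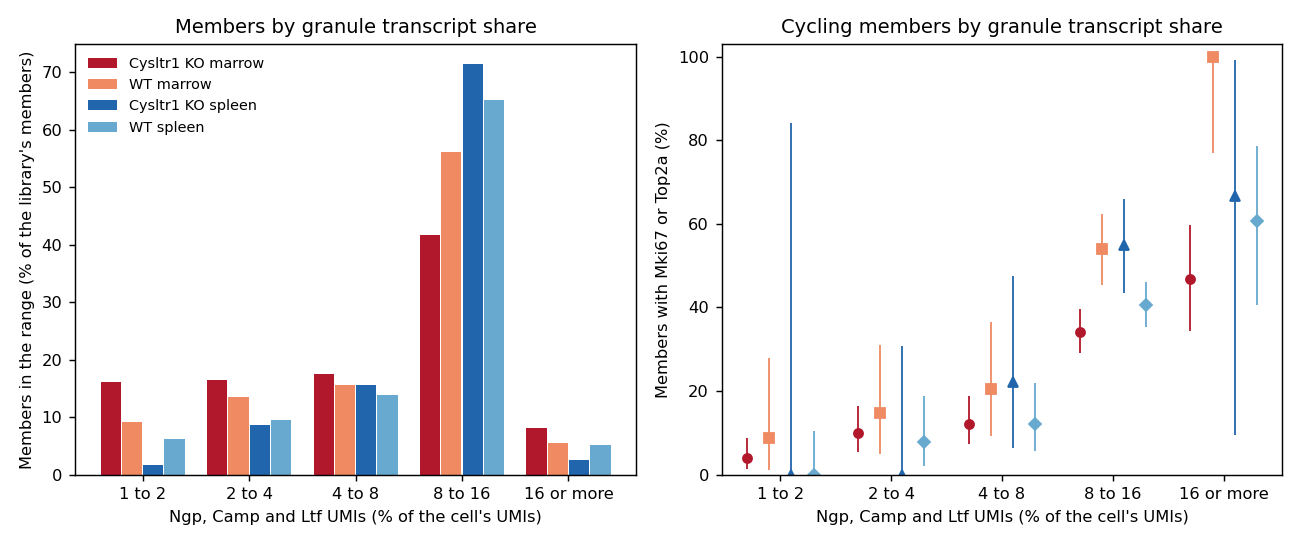
Left, members of each library (percent of its members) by granule share, the UMIs of Ngp, Camp and Ltf as percent of the cell's UMIs. Right, percent of members with at least 1 UMI of Mki67 or Top2a in the same ranges, with exact 95% intervals; KO spleen had 2, 10 and 3 members in the ranges 1 to 2%, 2 to 4% and 16% or more, and the percent was highest at 16% or more in all 4 libraries.

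Along the granule share the members changed from late-stage to dividing cells. Members at 8% or more (395 in KO marrow, 155 in WT marrow, 85 in KO spleen and 375 in WT spleen) were set against members under 4% (259, 57, 12 and 84 in the same order of libraries). Of 1833 genes with a mean of at least 50 CPM, 73 (3.98%) were at least 2-fold higher and 130 (7.09%) at least 2-fold lower in all 4 libraries. Without KO spleen, whose low end had 12 cells, the numbers were 80 and 175. The split uses Ngp, Camp and Ltf, so nothing here was tested.

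Of 16 specific granule genes at this level, 6 were higher and 1 lower at the high end, with medians of 0.80 and 0.66 log2 in KO and WT marrow and 0.99 and 1.04 in KO and WT spleen. The medians over all 1833 genes were -0.13, -0.28, -0.20 and -0.17 in the same order. The 6 higher genes were Ngp, Camp and Ltf themselves, which the split uses, and Fcnb, Chil3 and Cybb. The medians of the list include those 3 genes of the split and are raised by them. Chil3, a chitinase-like protein, was at 1504 CPM at the high end against 34.2 CPM at the low end in KO marrow, and at 2170 against 159 CPM in WT marrow. In spleen it was at 1510 against 101 CPM (KO) and at 2039 against 152 CPM (WT). Cebpe was at 420 against 57.5 CPM in KO marrow, 456 against 101 CPM in WT marrow, 448 against 25.3 CPM in KO spleen and 417 against 67.4 CPM in WT spleen. Cybb, the catalytic subunit of the NADPH oxidase, had log2 ratios of 1.33 to 1.63. Mmp8, a collagenase that is also stored in specific granules, ran the other way, with log2 ratios of -3.12 to -2.18.

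Genes of the mature cell stood at the low end. Of 22 mature neutrophil genes, 10 were lower at the high end in all 4 libraries and 0 higher, with medians of -1.53 and -1.29 log2 in KO and WT marrow and -1.08 and -1.20 in KO and WT spleen. Retnlg, a secreted resistin-like protein, was at 3981 against 40161 CPM in KO marrow, 3060 against 33539 CPM in WT marrow, 1279 against 14145 CPM in KO spleen and 2372 against 24308 CPM in WT spleen. Cxcr2 had log2 ratios of -2.53 to -1.72. Of 6 type I interferon response genes, 4 were lower and 0 higher. All 7 mitosis genes at this level were higher in all 4 libraries. S100a8, a subunit of calprotectin, had log2 ratios of 0.02 and 0.23 in KO and WT marrow and 0.24 and 0.16 in KO and WT spleen.

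Dividing cells were concentrated where the granule share was high. A member was called cycling with at least 1 UMI of Mki67, a protein of the dividing nucleus, or Top2a, a topoisomerase of S and G2 phase. The cycling percent in KO marrow was 3.91, 9.92, 12.2, 34.1 and 46.9 over granule shares of 1 to 2%, 2 to 4%, 4 to 8%, 8 to 16% and 16% or more. In WT marrow it was 8.70, 14.7, 20.5, 53.9 and 100 (14 of 14 cells). In KO spleen it was 0, 0, 22.2, 54.9 and 66.7, with 3 cells in the last range, and in WT spleen 0, 7.84, 12.2, 40.6 and 60.7. Depth rises along the same ranges, with median UMIs of 2816 and 5860 in the lowest and highest range of KO marrow and 6924 and 14811 in those of WT spleen. With every member thinned to 1500 UMIs, the percent was 2.48 in the lowest and 26.6 in the highest range of KO marrow, and 0 (0 of 32, up to 10.9) and 35.7 in those of WT spleen.

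The 2 pairs of libraries differed in which tissue held more cycling members. They were 22.4% (19.6 to 25.5) in KO marrow against 44.3% (35.1 to 53.9) in KO spleen, and 41.8% (35.7 to 48.2) in WT marrow against 32.1% (28.1 to 36.2) in WT spleen. At 1500 UMIs the shares were 15.3% (12.9 to 18.1) in KO marrow against 28.1% (20.1 to 37.3) in KO spleen, and 26.1% (20.8 to 32.0) in WT marrow against 16.5% (13.4 to 19.9) in WT spleen. At 3000 UMIs, KO marrow was at 23.5% against 33.6% in KO spleen, with 231 of 793 and 2 of 115 members left out, and WT marrow at 32.6% against 23.5% in WT spleen. The order within each pair was the same at every depth. In the later cells of spleen (S100a8 and S100a9 high, granule share under 1%), 1.77% (KO) and 3.36% (WT) had such a UMI at median depths of 2499 (KO) and 2390 (WT) UMIs, and 0.743% (KO) and 2.0% (WT) after thinning to 1500. In the later cells of marrow, 13.6% (KO) and 23.6% (WT) had one at median depths of 2173 (KO) and 4400 (WT) UMIs, and 10.3% (KO) and 15.2% (WT) after thinning to 1500. Mki67 was at 131 CPM (KO) and 290 CPM (WT) in those marrow cells, against 190 CPM (KO) and 236 CPM (WT) in the marrow members. By share of cells, the marrow members thus stood far less above the later cells of their own tissue than the spleen members did. By Mki67 level, the members of WT marrow stood below the later cells. The part of free RNA, or of dividing cells among the later cells, in the marrow shares was not tested. With 1 library on each side, the difference between the pairs was not tested.

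**Figure D2:**
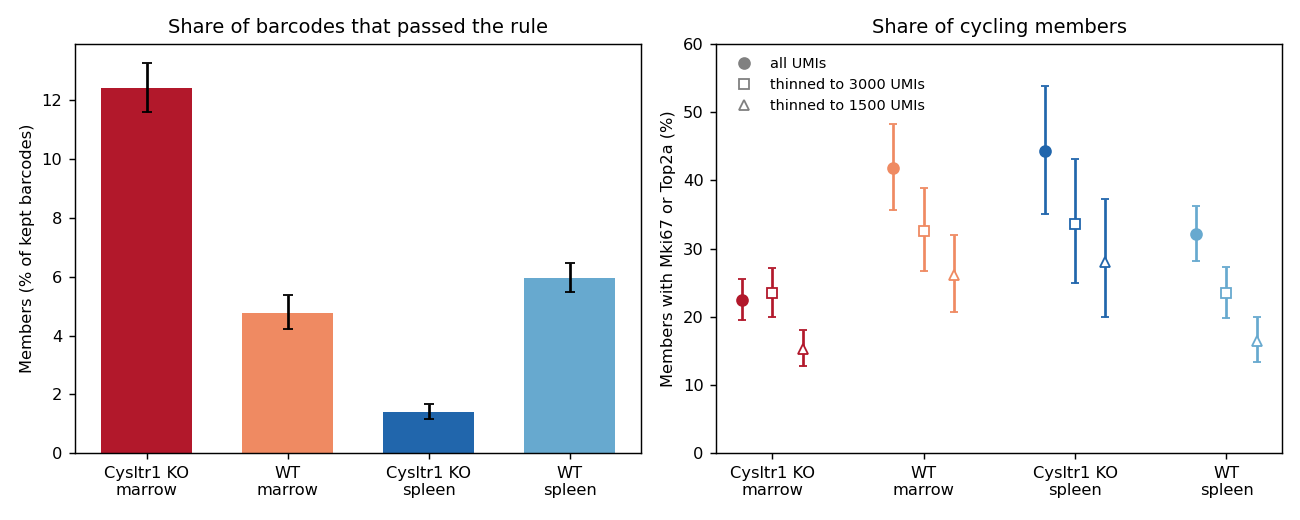
Left, members as percent of the kept barcodes of each library. Right, percent of members with at least 1 UMI of Mki67 or Top2a with all UMIs (filled circles) and with every member thinned to 3000 (squares) or 1500 UMIs (triangles). Bars are exact 95% intervals for counting error, and the cycling share was lower in KO marrow than in KO spleen and higher in WT marrow than in WT spleen in all 3 settings.

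The mitosis genes as a group ran the same way. Of 28, 14 were at least 1.5-fold lower and 0 higher in KO marrow than in KO spleen (9.71% and 11.1% of all 7036 genes with 30 or more UMIs). In the WT pair 10 were at least 1.5-fold higher and 0 lower in marrow (11.1% and 7.87% of 7880 genes). The median was -0.57 log2 in the KO pair and 0.44 in the WT pair, against 0.01 and 0.05 over all genes. Ube2c, a ubiquitin-conjugating enzyme of mitotic exit, was at 214 CPM in KO marrow against 351 CPM in KO spleen, and at 432 CPM in WT marrow against 261 CPM in WT spleen. Birc5 (survivin) was at 125 CPM in KO marrow against 161 CPM in KO spleen, and at 191 CPM in WT marrow against 117 CPM in WT spleen. Of 24 DNA replication genes, 19 were at least 1.5-fold higher in WT marrow than in WT spleen, whereas in the KO pair 1 was higher and 2 lower. Set by labelled genotype within a tissue, 15 of the 28 were at least 1.5-fold lower and 0 higher in KO marrow than in WT marrow (5.98% and 4.73% of all 7173 genes). In spleen 4 were higher and 0 lower in KO than in WT (6.97% and 6.61% of 7779 genes). The 4 ratios share the 4 libraries and are not independent. In the fit over all 4 libraries, edgeR and DESeq2 called 0 of the 28 between tissues, 2 having an unadjusted p under 0.05. Their median there was -0.06 log2, against -0.00 for all 8113 genes. That fit takes the tissue difference as equal in both labelled genotypes, so opposite changes in the KO and WT pairs cancel in it. It therefore cannot test the difference between the pairs.

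**Figure D3:**
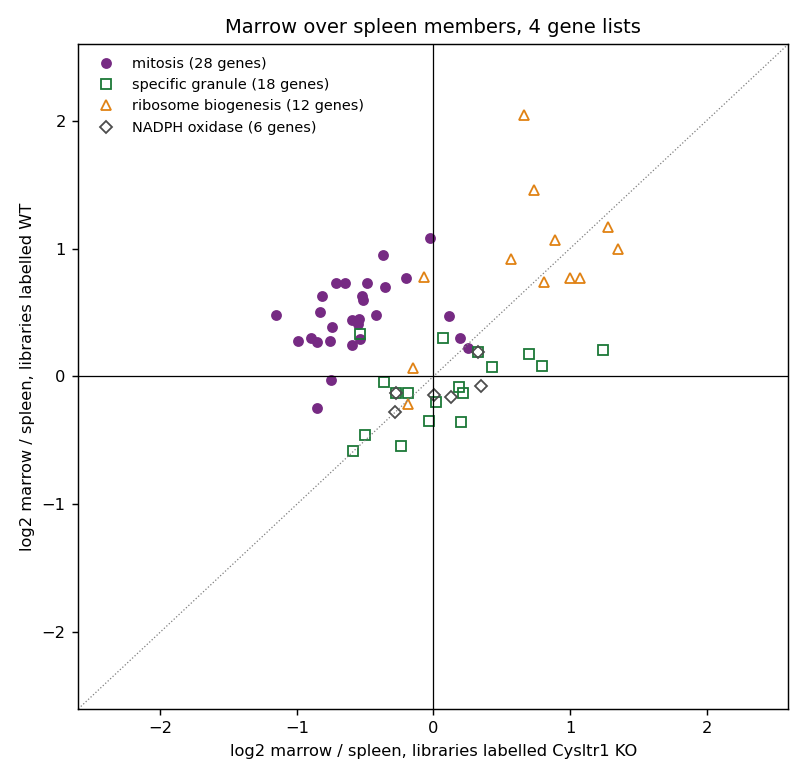
Log2 ratio of marrow over spleen members in the libraries labelled Cysltr1 KO (horizontal) and WT (vertical), for genes of 4 lists with at least 30 UMIs in each pair and none at 0. Of 28 mitosis genes, 23 lie at upper left (below 0 in the KO pair and above 0 in the WT pair), while 9 of 12 ribosome biogenesis genes lie above 0 in both.

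Cycling members were set against non-cycling members of the same library. Of 1763 genes with a mean of at least 50 CPM, 125 (7.09%) were at least 2-fold higher in cycling cells in all 4 libraries and 74 (4.2%) at least 2-fold lower. The cells were split by Mki67 and Top2a, so this is a description. Cycling members were deeper, with median UMIs of 7499 against 3441 in non-cycling members of KO marrow, 12377 against 6401 in WT marrow, 22303 against 14033 in KO spleen and 14909 against 10212 in WT spleen. Their median granule share was higher too, from 13.4% against 5.98% in KO marrow to 12.5% against 9.37% in KO spleen.

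The highest ratios belonged to the division machinery. Ube2c was at 574 CPM in cycling against 7.41 CPM in non-cycling members of KO marrow, at 756 against 14.8 CPM in WT marrow, at 633 against 3.35 CPM in KO spleen and at 613 against 4.35 CPM in WT spleen. Birc5, Nusap1, a spindle protein, Cdk1, Pclaf, a clamp-binding protein of replication, Asf1b, a histone chaperone, Ccna2 (cyclin A), H2afx, Cenpf and Prc1 each had log2 ratios of at least 4.80 in every library. All 13 mitosis genes at this level were among the 125.

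In cycling cells Cebpe and early granule genes were higher and late genes lower. Cebpe was at 466 CPM in cycling against 198 CPM in non-cycling members of KO marrow, at 483 against 191 CPM in WT marrow, at 513 against 248 CPM in KO spleen and at 494 against 237 CPM in WT spleen. Fcnb had log2 ratios of 2.11 to 3.43 and Chil3 of 1.08 to 1.93. Lcn2, with ratios of -0.14 to 0.09, and Cd177, with -0.00 to 0.21, were near equal. The 16 specific granule genes had medians of 0.02 and -0.02 log2 in KO and WT marrow and 0.09 and 0.01 in KO and WT spleen, near the all-gene medians of 0.05, -0.05, 0.01 and 0.01. Of 14 secretory pathway genes, 0 were 2-fold higher, while 11 had a ratio above 0 in all 4 libraries (38.9% of all genes did), with medians of 0.32 to 0.64.

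All 12 gelatinase granule and secretory vesicle genes had a ratio below 0 in all 4 libraries (37% of all 1763 genes did), 6 of them at least 2-fold, with medians of -1.38 to -1.06 log2. Mmp9, the gelatinase, was at 228 CPM in cycling against 1336 CPM in non-cycling members of KO marrow, at 244 against 1600 CPM in WT marrow, at 187 against 870 CPM in KO spleen and at 193 against 986 CPM in WT spleen. Of 22 mature neutrophil genes, 20 had a ratio below 0 in all 4 libraries and 10 were at least 2-fold lower. Retnlg was at 2753 against 21816 CPM in KO marrow, at 3110 against 19210 CPM in WT marrow, at 344 against 6190 CPM in KO spleen and at 1422 against 9192 CPM in WT spleen. Mmp8, Timp2, an inhibitor of metalloproteinases, Cyp4f18, which oxidises leukotriene B4, Fpr1, a receptor for bacterial formyl peptides, Prok2, Bst1, S100a6 and Emilin2 completed the 10 lowest, each with log2 ratios of -2.02 or below in every library.

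**Figure D4:**
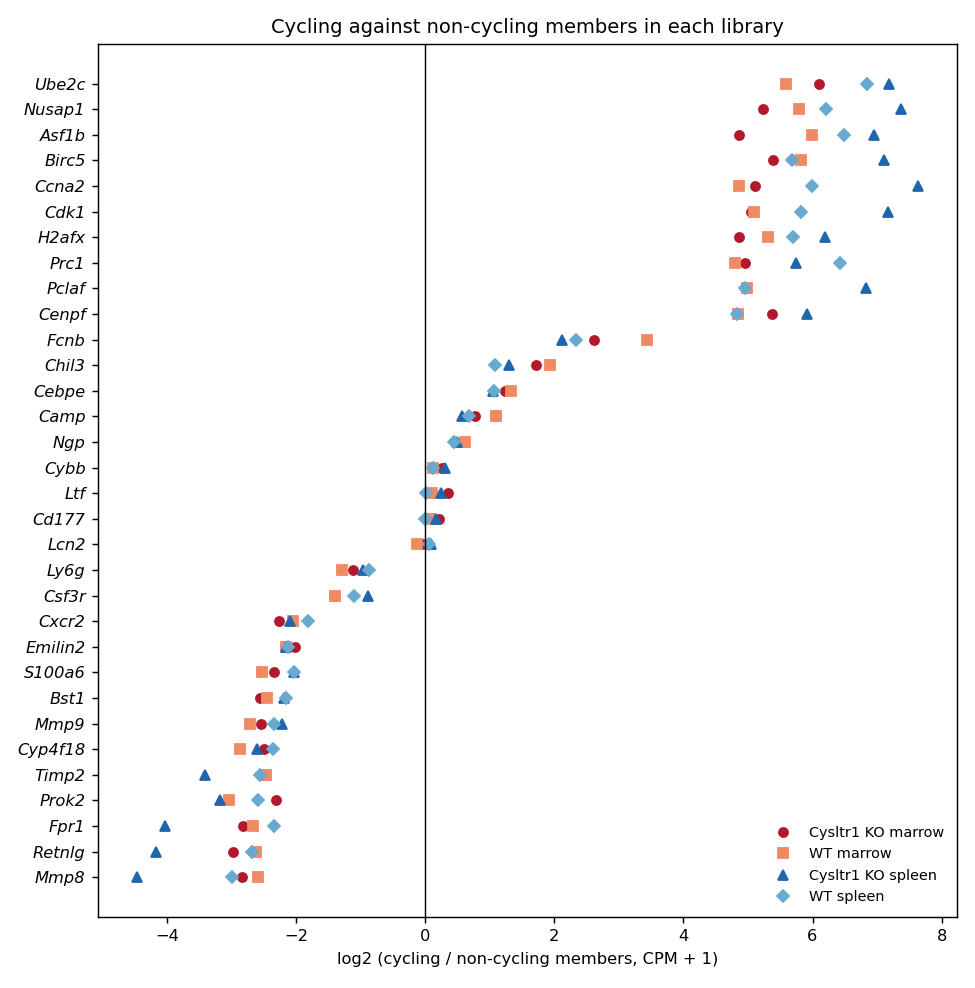
Log2 ratio of cycling over non-cycling members (CPM + 1) in each of the 4 libraries, for the 10 highest and 10 lowest genes by the value nearest 0 and for granule and receptor genes between them. Division genes lie at 4.80 or above, Lcn2 and Cd177 near 0, and Mmp8 and Retnlg at -2.59 or below.

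Marrow members were then compared with spleen members in 1 fit over the 4 libraries with labelled genotype as a second term, 2 libraries a tissue, 1 residual degree of freedom. Of 8113 genes tested, 262 (3.23%) passed an adjusted p of 0.05 in edgeR's quasi-likelihood test, 150 (1.85%) higher and 112 (1.38%) lower in marrow. DESeq2 called 16 higher and 11 lower. Of the 262, 136 had a level in the members under 20% of that in the other kept barcodes of the library where they were higher, which free RNA can reach; these are given as such. Without labelled genotype as a term, 107 were called higher and 89 lower. Fits with a library left out also drop that term and leave 1 library in a tissue. Their calls therefore cannot show what rests on 1 library. Fold changes did move, that of Retnlg being 1.03 log2 without KO spleen and 2.07 without WT spleen, against 1.52 with all 4. Removing barcodes marked as doublets left 99 higher and 54 lower. Of the 22 genes named below as above the guard, 4 were called by DESeq2. In edgeR, 15 were called without doublets and 14 with members drawn to 1 distribution of granule share. At a granule limit of 2% it called 12, and at 1500 UMIs a cell 2.

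No gene of the granule and oxidase lists passed outside the azurophil list. Over all 8113 genes edgeR called 3.23%, so lists this short would hold few calls at that share. Of 15 specific granule genes other than Ngp, Camp and Ltf, edgeR and DESeq2 called 0 (median -0.11 log2, against -0.00 over all genes), and 2 had an unadjusted p under 0.05. Both tools also called 0 of 13 gelatinase granule genes (1 with an unadjusted p under 0.05) and 0 of 6 NADPH oxidase genes (0 with such a p). Mmp8 was at 957 CPM in KO marrow against 404 CPM in KO spleen and at 681 CPM in WT marrow against 592 CPM in WT spleen, with an adjusted p of 0.102 in edgeR. Of 20 type I interferon response genes and 11 interferon gamma induced genes, both tools called 0, with 2 of each list at an unadjusted p under 0.05. A p that misses the threshold does not show that the levels were alike.

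The receptor of marrow retention was higher in marrow. Cxcr4 (chromosome 1, 128588199 to 128592293) was at 75.3 CPM (66.6 to 84.8) in KO marrow against 42.4 CPM (33.9 to 52.4) in KO spleen, and at 84.3 CPM (72.9 to 97.0) in WT marrow against 34.7 CPM (30.3 to 39.6) in WT spleen. Both marrow libraries lay above both spleen libraries, with a log2 fold change of 1.04 (SE 0.21, edgeR adjusted p = 0.00136). DESeq2 did not call it (DESeq2 adjusted p = 0.329), and at 1500 UMIs a cell the fold change was 1.11 (edgeR adjusted p = 0.541). With members drawn to 1 distribution of granule share the fold change was 0.68, with an edgeR adjusted p of 0.118. Cxcr2, the receptor of release, was at 257 CPM in KO marrow against 162 CPM in KO spleen and at 203 CPM in WT marrow against 232 CPM in WT spleen, and did not pass (edgeR adjusted p = 0.756). Of 17 trafficking genes tested, Cxcr4 was the 1 called higher in marrow and 4 were lower (1.85% and 1.38% of all 8113 genes). The 4 were Cxcl2, Ccrl2, S1pr1 and Vcam1, of which Ccrl2 and S1pr1 were below the guard. Vcam1 came from 3 cells in KO spleen and had a log2 fold change of 0.19 without that library, against -2.04 with it.

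Retnlg (chromosome 16, 48872621 to 48874496) was at 14857 CPM in KO marrow against 2959 CPM in KO spleen and at 10158 CPM in WT marrow against 5917 CPM in WT spleen. Its log2 fold change was 1.52 (SE 0.26, edgeR adjusted p = 0.000143) and 0.83 with matched granule shares (edgeR adjusted p = 0.00223). DESeq2 did not call it, and at 1500 UMIs a cell the fold change was 1.62 (edgeR adjusted p = 0.0914). Retnlg lay at the low end of the granule share, and KO marrow had the most cells there. Ccl6, a chemokine of myeloid cells, and Cyp4f18, Rgs2, a brake on G-protein signaling, Siva1, Hopx, Hnrnph1, Ddx3x and Jund were higher in marrow too, with log2 fold changes of 0.72 to 1.62. With matched granule shares, Ddx3x was at 0.24 (edgeR adjusted p = 0.691). Hopx and Hnrnph1 were not called there either (edgeR adjusted p = 0.105 and 0.0556), while the others were. Of 26 mature neutrophil genes, 4 were called higher in marrow, Retnlg, Ccl6, Clec4d and, below the guard, Srgn, and 1 lower, Il1b. Over all 8113 genes, 1.85% were called higher and 1.38% lower. Clec4d had a log2 fold change of 1.02 and of -0.0018 with matched granule shares. The median of the list was 0.06 log2.

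The chemokine genes Ccl4 and Ccl3 had the highest fold changes of the named genes, and few cells held them. Ccl4 was at 164 CPM in KO marrow against 12 CPM in KO spleen and at 267 CPM in WT marrow against 7.54 CPM in WT spleen (log2 4.55, SE 0.28, edgeR adjusted p = 5.60e-15). It was seen in 3.78% and 5.58% of members of KO and WT marrow, and the 5 cells richest in it held 65.2% and 96.6% of its UMIs there. Ccl3 was at 134 CPM in KO marrow against 28.4 CPM in KO spleen and at 138 CPM in WT marrow against 37.2 CPM in WT spleen. Without barcodes marked as doublets, the log2 fold change of Ccl4 was 2.05 and that of Ccl3 0.55, with an edgeR adjusted p of 0.377 for Ccl3. Basophil markers moved with them in marrow members, with 7 of 8 called higher, against 1.85% of all 8113 genes. Mcpt8 was at 68.4 and 39.8 CPM in KO and WT marrow and at 0 in both spleens, 13.7% and 11.1% of its level in the other marrow barcodes. Their part in the result was not tested.

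Of 20 genes of the NF-kB response tested, 5 were lower in marrow than in spleen and 2, Ccl3 and Ccl4, higher (1.38% and 1.85% of all 8113 genes). Their median was -0.78 log2 against -0.00 over all genes. Cxcl2 (chromosome 5, 90903871 to 90905938), a neutrophil attractant, was at 127 CPM (116 to 139) in KO marrow against 375 CPM (348 to 402) in KO spleen, and at 181 CPM (164 to 199) in WT marrow against 749 CPM (727 to 770) in WT spleen. The groups did not overlap, at a log2 fold change of -1.84 (SE 0.22, edgeR adjusted p = 1.46e-07), and of -2.75 with matched granule shares. Nfkbia, the inhibitor that NF-kB itself induces, was at 184 CPM in KO marrow against 342 CPM in KO spleen and at 230 CPM in WT marrow against 394 CPM in WT spleen (log2 -0.86, SE 0.21, edgeR adjusted p = 0.0109). DESeq2 did not call Nfkbia (DESeq2 adjusted p = 0.0666).

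Other cells of the spleen held more of these transcripts than the members did. Cxcl2 was at 1691 and 3293 CPM in the other barcodes of KO and WT spleen, so the members had 22.2% and 22.7% of that level, just above the guard of 20%. Il1b, the cytokine gene, was at 20.5 CPM in KO marrow against 92.3 CPM in KO spleen and at 6.48 CPM in WT marrow against 97.4 CPM in WT spleen (log2 -2.85, edgeR adjusted p = 6.36e-10). It was below the guard, at 8.03% and 6.1% of the level in the other barcodes of KO and WT spleen. Tnfaip3 and Cd83 were below it as well. For scale, Cd79a of B cells and Cd3e of T cells stood in the spleen members at 2.24% to 5.90% of their level in the other barcodes. Other foreign markers ranged more widely. Trac of T cells stood at 8.85% (KO) and 5.95% (WT) and Jchain of plasma cells at 0.939% (KO) and 10.6% (WT). C1qa of macrophages stood at 52.3% (KO) and 4.91% (WT). The part of free RNA in the NF-kB genes was not tested.

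Pde4b, a phosphodiesterase of cyclic AMP, Plscr1, an interferon-inducible scramblase, Tuba1a, Xbp1, a factor of the secretory pathway, Slc40a1, the iron exporter ferroportin, Cd14, a co-receptor for endotoxin, Hvcn1, a proton channel of the respiratory burst, and Eno1b were lower in marrow, with log2 fold changes of -1.06 to -0.76. Eno1b is near-identical to Eno1 and its reads may be split between them. Plscr1 was at 114 CPM in KO marrow against 216 CPM in KO spleen and at 163 CPM in WT marrow against 260 CPM in WT spleen, with other barcodes at 28.2 to 58.0 CPM. Slc40a1 was at 94.4 CPM in KO marrow against 172 CPM in KO spleen and at 77.3 CPM in WT marrow against 120 CPM in WT spleen. The other barcodes had Slc40a1 at 121 CPM in KO spleen and 159 CPM in WT spleen. Without doublets its log2 fold change was -0.40 (edgeR adjusted p = 0.594), and macrophage markers summed to 226 CPM in the members of KO spleen. Their part in the result was not tested.

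**Figure D5:**
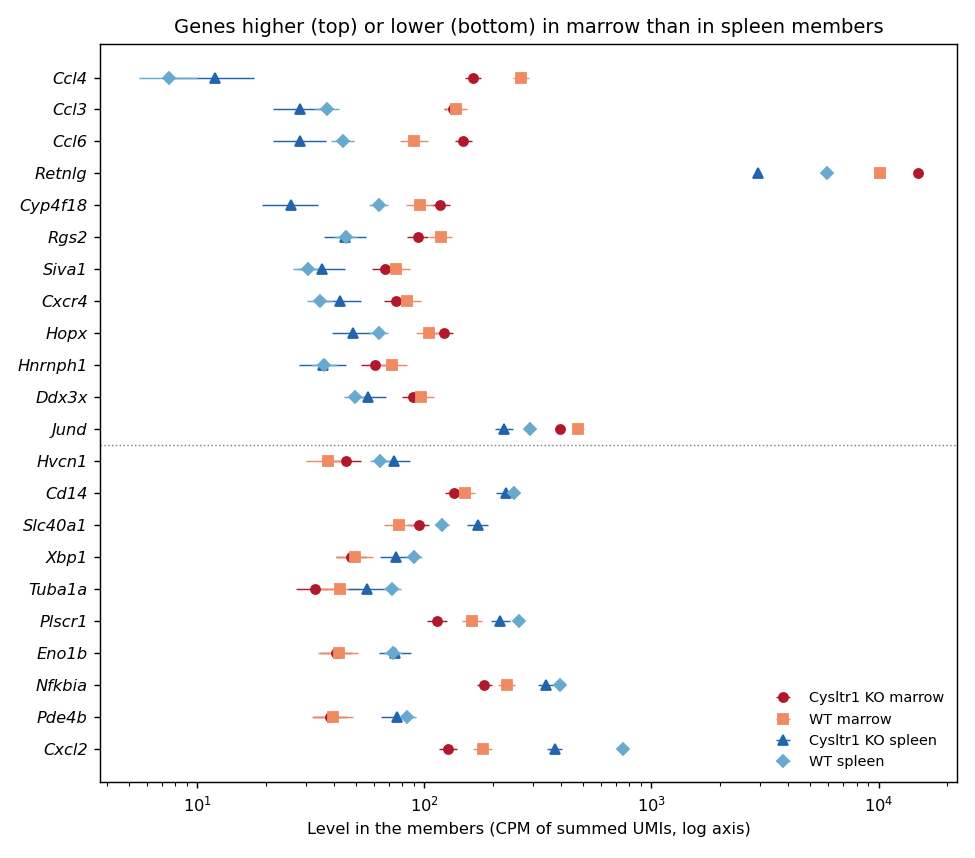
Level of the 22 named genes in the members of each library (CPM of summed UMIs, log axis) with exact 95% Poisson intervals, ordered by log2 fold change of marrow over spleen. The 12 genes above the dotted line were higher and the 10 below it lower in both marrow libraries than in both spleen libraries.

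The azurophil and ribosome biogenesis genes that were called lay below the guard. Of 11 azurophil genes other than Elane, Prtn3 and Mpo, 3 were called higher in marrow, Ctsg, Nkg7 and Srgn (median 0.75 log2), and 0 lower. Elane (neutrophil elastase), whose sum with Prtn3 and Mpo the rule limits, was, as a description, at 127 CPM in KO marrow against 13 CPM in KO spleen and at 179 CPM in WT marrow against 10.2 CPM in WT spleen. These are 1.21% and 1.72% of its level in the other barcodes of KO and WT marrow. Mpo was at 96.6 CPM in KO marrow against 2.99 CPM in KO spleen and at 115 against 5.19 CPM in the WT pair. Prtn3 differed less, at 225 CPM in KO marrow against 138 CPM in KO spleen and at 352 against 93.4 CPM in the WT pair. In the spleen members Prtn3 stood at 196% (KO) and 19.9% (WT) of its level in the other barcodes. Of 18 ribosome biogenesis genes, 6 were higher and 0 lower (median 0.73), among them Npm1, at 160 CPM in KO marrow against 86.3 CPM in KO spleen and at 175 CPM in WT marrow against 83.3 CPM in WT spleen. Npm1 stood at 7.88% to 8.87% of its level in the other barcodes of every library. Monocyte markers were higher too, with 4 of 9 called and Ccr2 at 28.0 and 31.1 CPM in KO and WT marrow and at 0 and 5.97 CPM in KO and WT spleen. Beside these lists, 1.85% of all 8113 genes were called higher and 1.38% lower.

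Markers of lymphocytes and macrophages differed the other way. The B cell markers summed to 54.0 and 20.7 CPM in KO and WT marrow members against 479 and 683 CPM in KO and WT spleen members, and 6 of 7 tested were lower in marrow. Of 8 T cell markers tested, 7 were lower in marrow. Over all 8113 genes, 1.38% were called lower. The macrophage markers summed to 32.7 and 11.2 CPM in KO and WT marrow and to 226 and 25.8 CPM in KO and WT spleen. Their part in the results was not tested.

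Within each labelled genotype, with 1 library a side and no test, the tissues differed in size of change. Of 1754 genes of the KO pair with at least 100 UMIs and a mean of 50 CPM, 24 (1.37%) were at least 2-fold higher and 16 (0.912%) lower in marrow. Of 1764 genes of the WT pair, 17 (0.964%) were higher and 15 (0.85%) lower. Retnlg was 5.02-fold (4.89 to 5.16) higher in marrow in the KO pair and 1.72-fold (1.69 to 1.75) in the WT pair. Cyp4f18 was 4.53-fold (3.39 to 6.16) and 1.52-fold (1.28 to 1.79) higher. Of 26 mature neutrophil genes, KO marrow held 12 at 1.5-fold or more above KO spleen and 1 as far below it (11.1% and 9.71% of all genes). In WT marrow 3 were higher and 4 lower than in WT spleen (11.1% and 7.87% of all genes), a share of higher genes near that of all genes. KO marrow also had the largest share of members at the low end of the granule share and the lowest depth, and their part in this was not tested.

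Few genes were called between the libraries labelled KO and WT. Of 8113 genes, 26 (0.32%) passed in edgeR's quasi-likelihood test, 15 (0.185%) higher and 11 (0.136%) lower in the libraries labelled KO. DESeq2 called 1 and 2. Dropping tissue as a term, with all 4 libraries kept, left 0 higher and 1 lower, and none of the 7 genes named here was called. Fits with a library left out drop that term too and leave 1 library on 1 side. Their calls therefore cannot show what rests on 1 library, though the 7 fold changes kept their direction in them. The values describe these 4 libraries. The calls held 0 genes of the gelatinase, mature neutrophil and mitosis lists in both tools, with 0, 1 and 0 genes of those lists at an unadjusted p under 0.05.

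Myadm, a membrane protein of myeloid cells, was at 42.9 CPM in KO marrow against 81.7 CPM in WT marrow and at 26.4 CPM in KO spleen against 114 CPM in WT spleen (log2 -1.46, SE 0.24, edgeR adjusted p = 0.000294). Asprv1, an aspartic protease, was at 210 CPM in KO marrow against 380 CPM in WT marrow and at 198 CPM in KO spleen against 408 CPM in WT spleen. Stfa2 and Stfa3, stefins of a family of near-identical genes whose reads may be split, and Rtf2 were lower too, at log2 -0.99 to -0.88. Pira2, an activating receptor of a family of near-identical genes, was at 109 CPM in KO marrow against 44.5 CPM in WT marrow and at 88.8 CPM in KO spleen against 53.3 CPM in WT spleen (log2 1.01, edgeR adjusted p = 0.0124). Dnah8, an axonemal dynein, had a log2 fold change of 0.91. Of 9 leukotriene genes tested, 1, Cysltr1, was called (0.32% of all 8113 genes were), and Alox5, Alox5ap, Lta4h and Ltb4r1 were not.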

How the data were processed

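Droplet libraries of EMT6-tumor-bearing mice were deposited by the authors as UMI count matrices, 1 per library, and per the file headers they came from Cell Ranger 6.1.0. Version 6.0.0 and the build mm10 stand in the submitters' processing notes, and the labels name both a 5' and a 3' kit. Of 6 libraries, the 4 of marrow and spleen were used, with 40377940 to 75873784 UMIs each. Barcodes were kept, and members chosen, by the limits given in the text. The members and gene lists were chosen with earlier results of these data known. Doublets were marked with the Scrublet caller of scanpy 1.11.5, at an assumed 0.8% per 1000 barcodes, and removed only as an alternative.

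Member counts were summed per library and tested with edgeR 4.0.16 (TMM scaling, its filter on low counts, quasi-likelihood test, tissue and labelled genotype as terms, Benjamini-Hochberg adjusted p under 0.05, R 4.3.3), with DESeq2 1.42.0 as an alternative. Counts were simulated at a dispersion of 0.05, with 100 genes changed 2-fold and 100 changed 4-fold, all at a mean of at least 50 CPM. Between tissues, 29% of the 2-fold and 98% of the 4-fold changes were recovered, and between genotypes 36% and 99%. The tests covered 8166 and 8112 genes. The changes were equal in both pairs, so genes at lower levels or with unequal changes were not tried. Named genes were up to 12 in each direction by fold change among those called, with a mean of at least 50 CPM, at least 1.5-fold apart the same way in both pairs with intervals that did not overlap, and above the free RNA guard of 20%. Also named were rule and marker genes, up to 4 members of each list by fold change, and, for cycling, up to 10 in each direction by the ratio nearest 0. A few list members outside this rule, such as Mmp8 and Cxcr2, were chosen after their values were seen. Ratios of cycling and granule share groups are log2 of CPM + 1, with no test.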

Additional observations from a re-analysis of the deposited data

Results flagged for a closer look

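The share of kept barcodes that were members differed between the pairs, at 12.4% in KO marrow against 1.39% in KO spleen and at 4.77% in WT marrow against 5.95% in WT spleen. The share of cycling members was 22.4% in KO marrow against 44.3% in KO spleen and 41.8% in WT marrow against 32.1% in WT spleen. At 1500 UMIs a cell the cycling shares were 15.3% in KO marrow against 28.1% in KO spleen and 26.1% in WT marrow against 16.5% in WT spleen. The median log2 ratio of marrow over spleen of the mitosis genes was -0.57 in the KO pair and 0.44 in the WT pair. In these measures the 2 labelled genotypes moved in opposite directions between tissues, and with 1 library a group the difference was not tested. In the tumors, which no comparison used, 5 of 8599 kept barcodes of the WT library and 1 of 6341 of the KO library passed the rule for members.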

How the results depend on the processing

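The number of genes called between tissues depended on the setting and the test, and the causes were not tested. In place of 150 higher and 112 lower, there were 16 and 11 with DESeq2, 99 and 54 without doublets, 48 and 67 at a granule limit of 2%, 8 and 7 at 1500 UMIs, 96 and 70 in non-cycling members, 79 higher with matched granule shares and 202 lower with no filter. Leaving out a library gave 14 to 210 higher and 11 to 230 lower (14 and 11 without KO marrow, 23 and 20 without WT marrow). Between labelled genotypes, in place of 15 higher and 11 lower, there were 1 and 2 with DESeq2, 37 and 40 with no filter, 0 and 1 without tissue as a term (100 genes at an unadjusted p under 0.05), 4 and 4 at a granule limit of 2%, 0 and 0 at 1500 UMIs (101 genes at such a p), and 8 and 4 higher without doublets and in non-cycling members. Leaving out a library gave 0 to 4 higher and 0 to 17 lower. The member share of KO marrow was 10.4% at a granule limit of 2% and 10.8% at an azurophil limit of 0.1%, that of WT marrow 3.75% at that azurophil limit, and that of WT spleen 6.54% at 1500 UMIs. The cycling share of KO marrow was 15.3% at 1500 UMIs, 16.9% with at least 2 UMIs and 26.0% at a granule limit of 2%. That of WT marrow was 26.1% and 32.6% at 1500 and 3000 UMIs and 33.1% with at least 2 UMIs, that of KO spleen 28.1% and 33.6% at those depths, and that of WT spleen 16.5% and 23.5% at those depths and 25.7% with at least 2 UMIs. Within genotypes at a mean of at least 10 CPM, 91 genes were higher and 38 lower in KO marrow and 66 higher and 47 lower in WT marrow than in spleen, and at 1500 UMIs 70 and 8 were higher. Some log2 fold changes turned round. Between tissues, that of Clec4d was -0.0018 and that of Ighm 0.021 with matched granule shares, and that of Egr1 was -0.031 and that of Vcam1 0.97 without doublets. Leaving out a library gave -3.16 to 0.19 for Vcam1 (0.19 without KO spleen) and -2.30 to 0.59 for Ighm (0.59 without WT spleen). Between labelled genotypes, that of Vcam1 was -0.59 without doublets and -0.15 to 3.21 with a library left out. No paired analysis was possible because each tissue and genotype had 1 library and no replicate number joins pools; labelled genotype is already a term of the tissue comparison, and without it 107 genes were higher and 89 lower. Depth differed between libraries, and shares of cells with a UMI move with it.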

Other observations

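Genes of the interferon response and of immediate early induction were counted in each pair. Of 20 type I interferon response genes, KO marrow held 7 at 1.5-fold or more above KO spleen and 2 as far below it, while 0 were higher and 4 lower in WT marrow than in WT spleen, with medians of 0.17 and -0.28 log2. Of 21 immediate early genes, 13 were higher and 3 lower in KO marrow than in KO spleen, while 3 were higher and 4 lower in WT marrow than in WT spleen, with medians of 0.63 and 0.10 log2. Over all genes, 11.1% were higher and 9.71% lower in the KO pair, and 11.1% and 7.87% in the WT pair. The immediate early genes summed to 5051 CPM in KO marrow and 3586 CPM in KO spleen, and to 5765 CPM in WT marrow and 5246 CPM in WT spleen, so KO spleen was the lowest library. Set by labelled genotype, 0 were higher and 3 lower in KO marrow than in WT marrow (4.73% and 5.98% of all genes), and 0 higher and 10 lower in KO spleen than in WT spleen (6.97% and 6.61%). The medians over all genes were 0.01 in the KO pair and 0.05 in the WT pair, and the difference between the pairs was not tested.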
